A study of Sus scrofa with 6 samples.

Results

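Microtubules are hollow filaments of alpha- and beta-tubulin, and the genes described here encode tubulin, its folding factors, the motors that walk along microtubules, and proteins of the centrosome and spindle. Members were the probe sets of the array whose single annotated gene symbol belongs to these families, which gave 67 of 23999 probe sets, for 47 genes of 6765 with a single symbol. They fell by symbol into tubulin with its folding cofactors and gamma-tubulin complex (15 probe sets), kinesins (10), dynein with dynactin (21), centrosome proteins (7) and other microtubule-associated proteins (14). PCM1, TPX2 and TBCE, which the same definition covers, are not analysed here.

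The data are 6 Affymetrix porcine arrays of pig oocytes at metaphase II, 3 from adult females (sows) and 3 from prepubertal females (gilts). The labels call adult oocytes developmentally competent and prepubertal ones incompetent, and name the arrays of a group as biological replicates. In both groups the oocytes came from follicles of 2 to 6 mm, were matured in culture for 42 to 44 h, were stripped of cumulus cells and were checked for a first polar body. The labels give neither an age in days nor the number of oocytes or animals behind an array, and a p-value therefore speaks only of the spread among these arrays. Within an array, fewer oocytes with a transcript and fewer transcripts per oocyte cannot be told apart.

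At metaphase II the chromosomes of the egg are held on a spindle that is built without centrioles, which mammalian oocytes lose while they grow. Spindle microtubules are nucleated by gamma-tubulin complexes, kept in length by proteins at their ends, pushed and sorted by kinesins, and focused into poles by dynein, the motor that moves towards the minus ends. A mature oocyte makes almost no new RNA, so these proteins are made from mRNA stored earlier, and microtubules later carry the pronuclei together after fertilization.

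The deposited arrays did not share a common level: their 2% trimmed mean signal was 121 to 160 in adult and 105 to 131 in prepubertal samples. They were therefore brought to one distribution by quantile normalization, and "signal" below is the normalized value. A difference is prepubertal minus adult on the scale log2(signal + 16), where the added 16 quiets probe sets near background and makes their folds too small. Each adjusted p is from limma with Benjamini-Hochberg adjustment over the 12000 probe sets at or above the median level. Without the normalization the median difference of all tested probe sets was −0.20 in place of −0.01. Deposited differences departed from the normalized ones by unequal amounts, for example 0.02 as deposited against 0.31 normalized for TACC3, and 0.27 against 0.35 for DYNLT3. Scaling to the hybridization controls, control RNAs added before hybridization, moved the median to −0.37. The oocyte markers ZP2, ZP3, ZP4, GDF9, BMP15, POU5F1 and NPM2 were in the tested range. Their list, with 9 of 18 genes on the array, summed to a signal of 4630 to 5360 in adult and 5590 to 5920 in prepubertal oocytes, and 0 of the 7 tested genes passed in limma. The sum of 16 cumulus and granulosa markers was 473 to 494 in adult and 444 to 494 in prepubertal oocytes, and CYP11A1, CYP19A1, STAR, FSHR and AMH had signals under 20 on every array. Of the 16 genes, 7 were under 20 on every array and 6 were in the tested range, among them FST and INHBA, with signals of up to 122. Blood and immune markers summed to 237 to 380 in adult and 171 to 384 in prepubertal samples, with HBB at 215 to 340 and 154 to 358. Theca and stroma markers summed to 90.5 to 136 and 78 to 116, and endothelial ones to 93.1 to 133 and 96.3 to 137. None of their tested genes passed in limma. Without overlap between groups were COL3A1 (−0.74) and a COL1A2 probe set (0.18). The part of this marker signal in the results was not tested. The ratio of the 3′ to the 5′ control probe set of GAPDH, a sign of transcript completeness, was 23.4 to 120 in adult and 9.86 to 29.3 in prepubertal samples (exact permutation p = 0.2, 2-sided, 0.6 adjusted over 3 such controls). For actin the ratio was 555 to 4840 and 335 to 4180, and for EF1A 30.1 to 65.8 and 28.8 to 47.7 (exact permutation p = 0.9 for each). With 3 arrays against 3 this test cannot go below 0.1. The part of these ratios in the results was not tested.

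Of the 67 member probe sets 50 were tested, for 40 genes, and 2 passed an adjusted p of 0.05 in limma. Both were lower in prepubertal oocytes: DYNLT1, a light chain of the dynein motor, and CEP57, a centrosome protein. Over all tested probe sets 0.117% passed, and 0.0917% passed as lower. At an unadjusted p at or under 0.05 there were 9 of the 50 members (18%), against 10.8% of all tested probe sets. The groups did not overlap for 11 of the 50 members, against 16.3% of all tested probe sets. Of these 6 were lower and 5 higher in prepubertal oocytes, where the shares over all tested probe sets were 8.77% and 7.54%. The median difference of the members was −0.06, with 28 values below 0 and 22 above, beside −0.01 over all tested probe sets. A difference under 0.25 in size was found for 32 members (64%), against 63% of all tested probe sets. As deposited, the same 2 genes passed, at a background of 0.475%, and 38 of 50 values lay below 0, as did 74.8% of all tested probe sets.

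**Figure D1:**
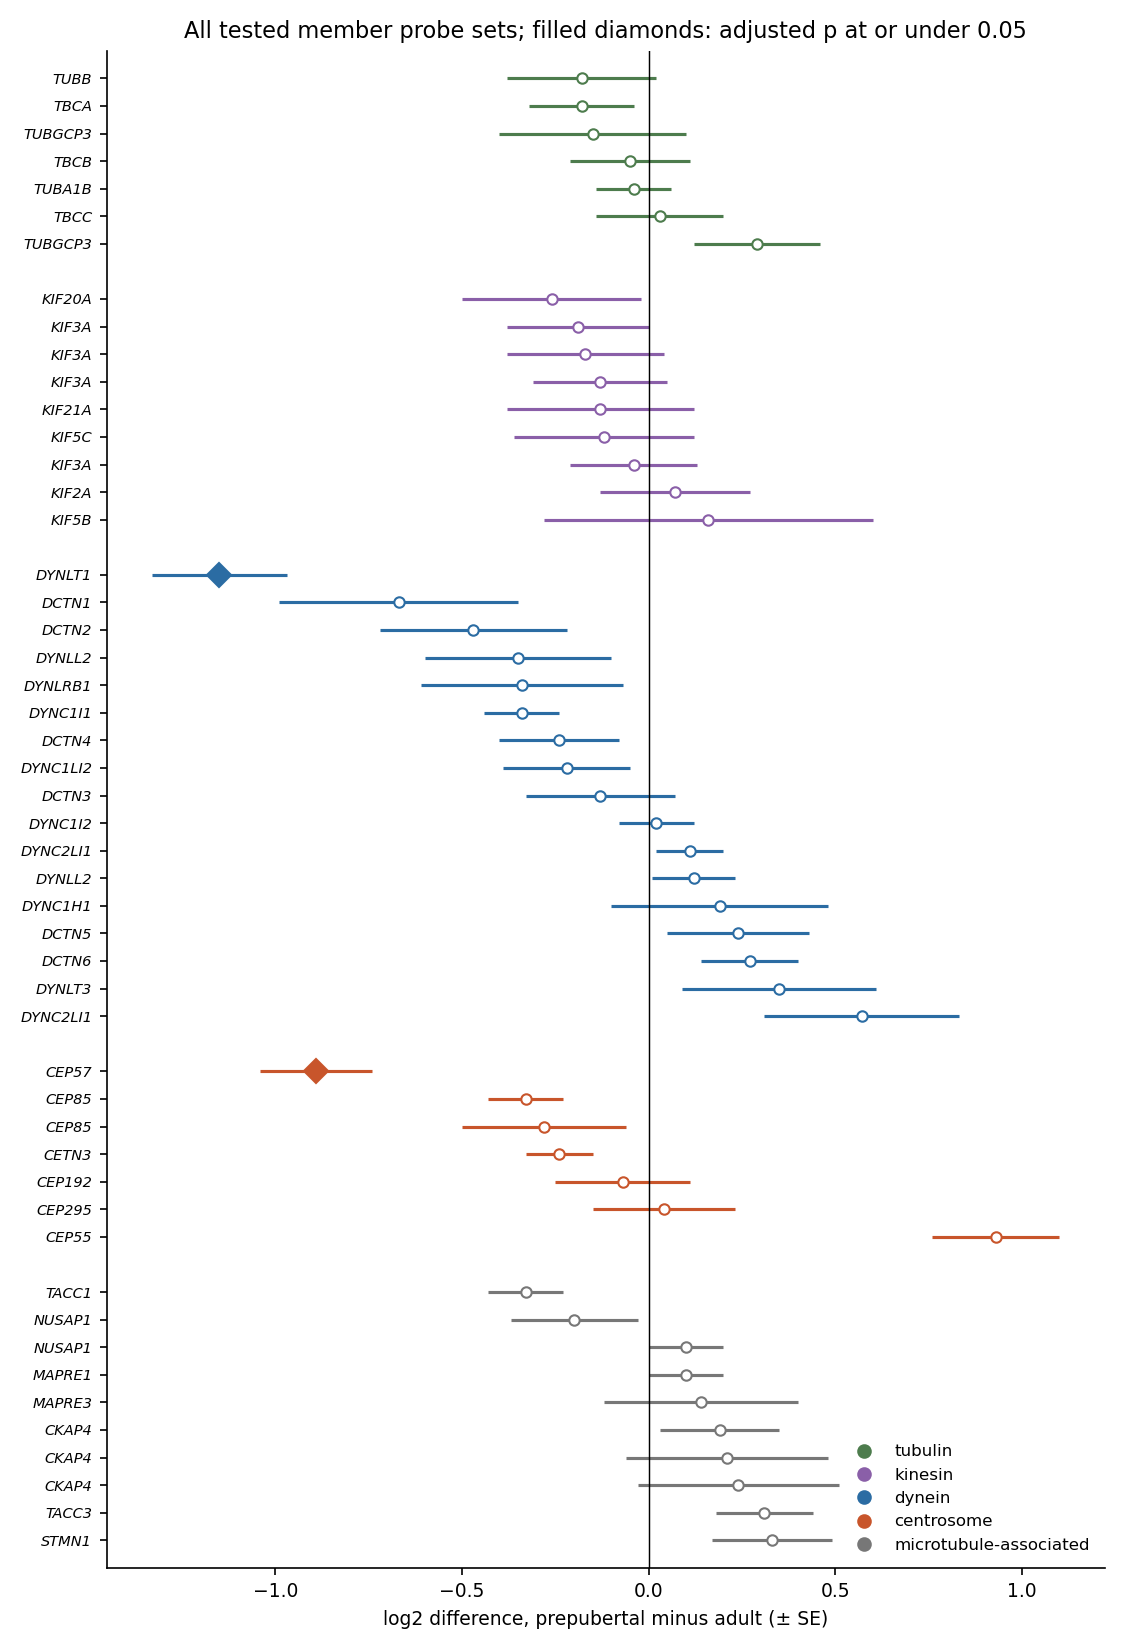
Log2 difference in signal, prepubertal minus adult, with its standard error for each of the 50 tested member probe sets, coloured by group; filled diamonds passed an adjusted p of 0.05. DYNLT1 (−1.15) and CEP57 (−0.89) lie apart on the low side and CEP55 (0.93) on the high side, while tubulin and kinesin probe sets lie between −0.26 and 0.29.

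DYNLT1 encodes a Tctex-type light chain, which sits at the base of cytoplasmic dynein and helps attach cargo. Its signal was 3757, 4490 and 5358 in adult samples (replicates 1, 2 and 3) and 2802, 1647 and 1781 in prepubertal samples. All 3 prepubertal samples were below all adult ones, and prepubertal replicate 1 was the nearest to them. The means were 4535 ± 802 and 2077 ± 632 (SD, n = 3 arrays each), and the log2 difference was −1.15 ± 0.18 (SE), 2.21-fold down, at an adjusted p of 0.042 in limma. In the order of all 12000 differences it had place 15 from the low end. As deposited its signal was 4568, 4374 and 5811 in adult and 2906, 1321 and 1570 in prepubertal oocytes, 2.66-fold lower (limma adjusted p = 0.00526).

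CEP57 encodes a protein of the pericentriolar material that binds microtubules and helps keep paired centrioles together. Its signal was 651, 584 and 662 in the adult and 379, 343 and 285 in the prepubertal samples. The groups did not overlap. The within-group SD was 0.16 on the log2 scale, where the median over tested members was 0.21. The means were 632 ± 42.0 and 336 ± 47.7 (SD, n = 3 arrays each), and the log2 difference was −0.89 ± 0.15 (SE), 1.85-fold down, at an adjusted p of 0.0464 in limma. As deposited its signal was 834, 555 and 734 in adult and 391, 282 and 255 in prepubertal oocytes, 2.23-fold lower (limma adjusted p = 0.0263).

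Both calls lay close to the threshold and rested on every array but one. In limma without adult replicate 1, 2 or 3 the adjusted p was 0.141, 0.198 and 0.111 for DYNLT1 and 0.199, 0.196 and 0.111 for CEP57. Without prepubertal replicate 2 or 3 it was 0.124 and 0.122 for DYNLT1 and 0.125 and 0.154 for CEP57. Without prepubertal replicate 1 both passed, at 0.00155 and 0.0131. The size of the difference changed less, from −0.99 to −1.38 for DYNLT1 and from −0.78 to −0.98 for CEP57. A fit with no trend of the variance on signal gave limma adjusted p-values of 0.341 and 0.33, at the same differences.

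CEP55, a protein of the midbody that recruits the machinery for the last cut of cell division, had the largest difference in the other direction. Its signal was 136, 128 and 120 in the adult and 216, 300 and 263 in the prepubertal samples. No prepubertal sample reached down to the adult range. The means were 128 ± 7.79 and 260 ± 41.8 (SD, n = 3 arrays each), a 1.90-fold difference with a log2 value of 0.93 ± 0.17 (SE), but the limma adjusted p was 0.0565 and it did not pass. As deposited the log2 difference was 0.68 (limma adjusted p = 0.19). Without prepubertal replicate 1 CEP55 passed (1.04, limma adjusted p = 0.0169), and without any other single array the adjusted p was 0.128 to 0.239.

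**Figure D2:**
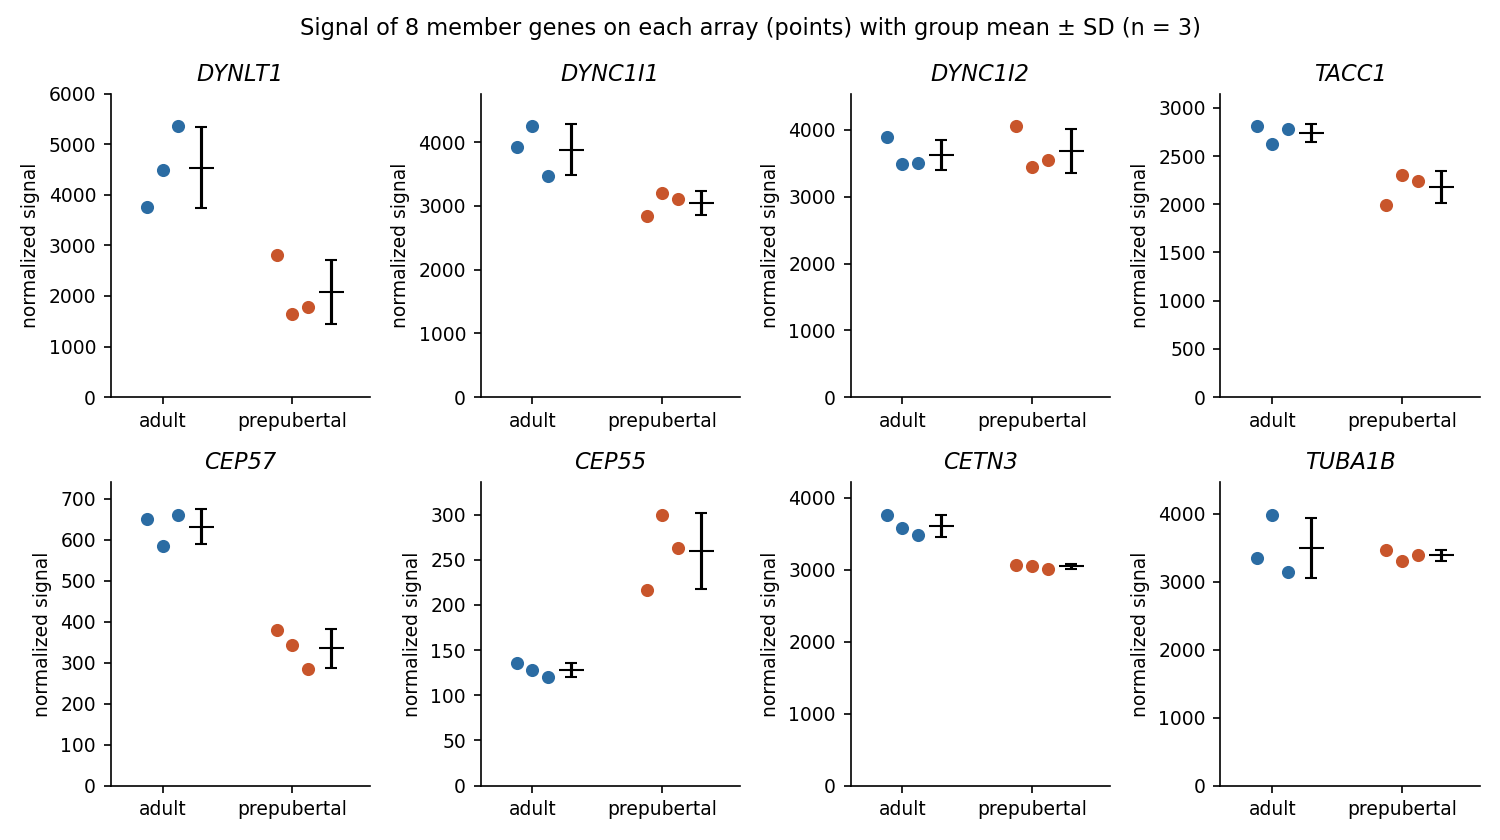
Normalized signal (vertical axis, from 0) of 8 member genes on each of 3 adult and 3 prepubertal arrays, drawn as points in replicate order, with the group mean and SD beside them. DYNLT1 and CEP57 are lower and CEP55 has higher values in prepubertal oocytes without overlap, while DYNC1I2 and TUBA1B have nearly the same mean in both groups.

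The other centrosome genes differed less, and the group's 7 tested probe sets, for 6 genes, had a median of −0.24, with 5 values below 0 (−0.50 as deposited and −0.70 after scaling to the hybridization controls). The median was −0.13 without adult replicate 1 and −0.15 without prepubertal replicate 2. The groups did not overlap for 4 of the 7, CEP57 and CEP55 among them, where 16.3% of all tested probe sets did not overlap. Another was CETN3, a centrin, the calcium-binding protein of centrioles. Its signal was 3769, 3579 and 3481 in adult and 3069, 3057 and 3014 in prepubertal oocytes, and it had one of the narrowest spreads among members (within-group SD 0.04 on the log2 scale). The difference of −0.24 ± 0.09 (SE) did not pass (limma adjusted p = 0.336).

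CEP85, a centrosome protein known to restrain the kinase NEK2, had a probe set with signals of 2778, 2839 and 2581 in adult and 2203, 2048 and 2266 in prepubertal oocytes. These did not overlap either, with a difference of −0.33 ± 0.10 (SE; limma adjusted p = 0.232). A second CEP85 probe set, with signals of 129 to 188 in adult and 90.1 to 162 in prepubertal oocytes, overlapped between groups at a like difference of −0.28 ± 0.22 (SE). CEP192, a scaffold that gathers pericentriolar material, had a difference of −0.07 ± 0.18. CEP295, a factor of centriole maturation, had one of 0.04 ± 0.19, so neither showed a shift larger than its error.

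Cytoplasmic dynein is built on a heavy chain, which is the motor, with intermediate, light intermediate and light chains that link it to cargo and to dynactin. Besides DYNLT1, 0 of the other 16 tested probe sets of this group passed, and 2 of them had an unadjusted p at or under 0.05 in limma. With DYNLT1 counted these were 3 of 17 (17.6%), against 10.8% of all tested probe sets. The group's median was −0.13, with 9 values below 0 and 8 above. The related light chain gene DYNLT3 had low signals of 9.62, 20.4 and 19.3 in adult and 27.0, 20.4 and 27.4 in prepubertal oocytes, so the groups all but touched at 20.4. Its difference of 0.35 ± 0.26 (SE; limma adjusted p = 0.657) had the opposite sign to that of DYNLT1, and a test of the difference between the paralogs was not made. Another DYNLT3 probe set was below the median level and was not tested, with means of 7.62 in adult and 4.89 in prepubertal oocytes.

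DYNLL2 encodes a light chain of the LC8 type, a dimer that binds many partners besides dynein. One DYNLL2 probe set had signals of 2681, 3228 and 3475 in adult and 3390, 3295 and 3491 in prepubertal oocytes, a difference of 0.12 ± 0.11 (SE). A dimmer DYNLL2 probe set had a difference of −0.35 ± 0.25, so its sign depended on the probe set. The roadblock-type light chain gene DYNLRB1 lay near background, at 14.3 to 32.4 in adult and 12.1 to 15.1 in prepubertal oocytes (−0.34 ± 0.27). DYNLT1 was thus the light chain gene of 4 measured here that passed the test.

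The paired intermediate chain genes did not show the same values. DYNC1I1 had signals of 3932, 4254 and 3467 in the adult and 2839, 3207 and 3103 in the prepubertal samples. The groups did not overlap, but the difference of −0.34 ± 0.10 (SE) did not pass (limma adjusted p = 0.234, and 0.0857 as deposited). DYNC1I2, measured at 3887, 3494 and 3505 in adult and 4058, 3451 and 3543 in prepubertal oocytes, overlapped throughout, with a difference of 0.02 ± 0.10 (−0.26 as deposited). The difference between the 2 genes was not tested.

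The heavy chain gene DYNC1H1 was dim, at 10.9 to 35.9 in adult and 21.3 to 37.1 in prepubertal oocytes (0.19 ± 0.29, SE), and a shift of either sign would be hard to see there. DYNC1LI2, a light intermediate chain gene, had signals of 218 to 237 in adult and 162 to 240 in prepubertal oocytes (−0.22 ± 0.17). DYNC2LI1 belongs to dynein-2, the motor of transport inside cilia. One of its probe sets had signals of 641, 596 and 322 in adult and 1077, 631 and 609 in prepubertal oocytes, with an unadjusted limma p of 0.0481 and an adjusted one of 0.455 (0.57 ± 0.26). The other DYNC2LI1 probe set, at 6855 to 7808 and 7179 to 8409, differed by 0.11 ± 0.09.

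Dynactin is the complex that docks dynein to its cargo and lets it walk far, and its 6 tested genes did not share a sign. DCTN1, the large arm that contacts dynein and the microtubule, had signals of 27.6, 59.2 and 17.7 in adult and 19.0, 16.2 and 8.61 in prepubertal oocytes (−0.67 ± 0.32, SE; limma adjusted p = 0.477). The high adult value was that of replicate 2 alone. DCTN2, or dynamitin, the shoulder subunit that joins the arm to the filament, had signals of 53.3, 38.6 and 32.4 in adult and 25.8, 34.0 and 17.1 in prepubertal oocytes (−0.47 ± 0.25). DCTN3, another shoulder subunit, differed by −0.13 ± 0.20.

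The pointed-end subunits, which cap the dynactin filament at one end, were measured by DCTN4, DCTN5 and DCTN6. DCTN6 had signals of 452, 423 and 436 in adult and 509, 542 and 538 in prepubertal oocytes. The groups did not overlap, with a difference of 0.27 ± 0.13 (SE; limma adjusted p = 0.479), but as deposited the difference was −0.01 and scaling thus decided its sign. DCTN5 differed by 0.24 ± 0.19 and DCTN4 by −0.24 ± 0.16, each with overlapping groups.

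Kinesins mostly walk towards the plus ends and carry vesicles or chromosomes, or act on the spindle. None of the 9 tested kinesin probe sets, for 6 genes, passed in limma. Of the 9, 0 had an unadjusted limma p at or under 0.05, against 10.8% of all tested probe sets. The groups were separated for 0, against 16.3%. The kinesin median was −0.13 (−0.31 as deposited), with 7 values below 0, of which 4 were of KIF3A. In size, 8 of 9 differences were under 0.25. KIF3A, a subunit of the kinesin-2 motor, was measured by 4 probe sets, whose differences lay between −0.19 and −0.04, so they agree within their errors of 0.17 to 0.21 (SE). For the KIF3A probe set with the smallest difference the values were 327, 304 and 414 in adult and 377, 275 and 366 in prepubertal oocytes.

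KIF2A, a kinesin that takes microtubules apart from their ends, had signals of 880, 469 and 785 in adult and 679, 688 and 808 in prepubertal oocytes (0.07 ± 0.20, SE). The low adult value was that of replicate 2. KIF20A, a kinesin of cytokinesis, had signals of 44.4, 41.6 and 44.2 in adult and 22.3, 47.6 and 34.3 in prepubertal oocytes (−0.26 ± 0.24; limma adjusted p = 0.718). KIF21A, a motor that restrains microtubule growth, differed by −0.13 ± 0.25.

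The conventional kinesin genes KIF5B and KIF5C, whose motors carry organelles, differed by 0.16 ± 0.44 and −0.12 ± 0.24 (SE). KIF5B had the widest spread of all tested members (within-group SD 0.83 on the log2 scale), with signals of 20.5, 19.9 and 102 in adult and 77.3, 22.4 and 44.4 in prepubertal oocytes. Both groups were spread widely and overlapped. The median spread was 0.21 over tested members and 0.24 over all tested probe sets. KIFC1, the minus-end kinesin that bundles spindle microtubules, had signals of 1.94 to 19.3 and was not tested.

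Of the tubulin group 7 of 15 probe sets were tested, and 0 passed in limma. An unadjusted limma p at or under 0.05 was found for 0, against 10.8% of all tested probe sets. The median was −0.05, with 5 of 7 values below 0 (−0.32 as deposited, with 6 of 7). TUBA1B, an alpha-tubulin gene, had signals of 3350, 3987 and 3136 in adult and 3467, 3302 and 3390 in prepubertal oocytes. The groups overlapped almost wholly, with means of 3491 ± 443 and 3387 ± 82.6 (SD, n = 3 arrays each) and a difference of −0.04 ± 0.10 (SE). TUBB, a beta-tubulin gene, was measured at 79.3, 70.7 and 86.3 in adult and 56.1, 86.2 and 63.4 in prepubertal oocytes (−0.18 ± 0.20), again with overlap.

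Tubulin folding cofactors hold and pair newly made alpha- and beta-tubulin. TBCA, which binds beta-tubulin, had signals of 492, 649 and 613 in adult and 521, 529 and 478 in prepubertal oocytes (−0.18 ± 0.14, SE; limma adjusted p = 0.671). TBCB, which binds alpha-tubulin, differed by −0.05 ± 0.16, and TBCC, which triggers release of the finished dimer, by 0.03 ± 0.17. TUBGCP3, a subunit of the gamma-tubulin ring that starts new microtubules, had a probe set with 252, 191 and 268 in adult and 286, 271 and 314 in prepubertal oocytes. These did not overlap (0.29 ± 0.17; limma adjusted p = 0.549), but the value was 0.02 as deposited, and a dimmer TUBGCP3 probe set differed by −0.15 ± 0.25.

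The other microtubule-associated proteins had values in the opposite direction as a group, which depended on scaling. Of their 10 tested probe sets, for 7 genes, 0 passed in limma. An unadjusted limma p at or under 0.05 was found for 2 (20%, against 10.8% of all tested probe sets). The group's median was 0.16, with 8 values above 0, of which 3 were of CKAP4. As deposited the median was −0.01, with 5 above 0, and after scaling to the hybridization controls it was −0.22, with 0 above 0. Against the median of all tested probe sets the group lay higher under each of these scalings, as the plot of group medians shows, but no list was tested as a whole.

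**Figure D3:**
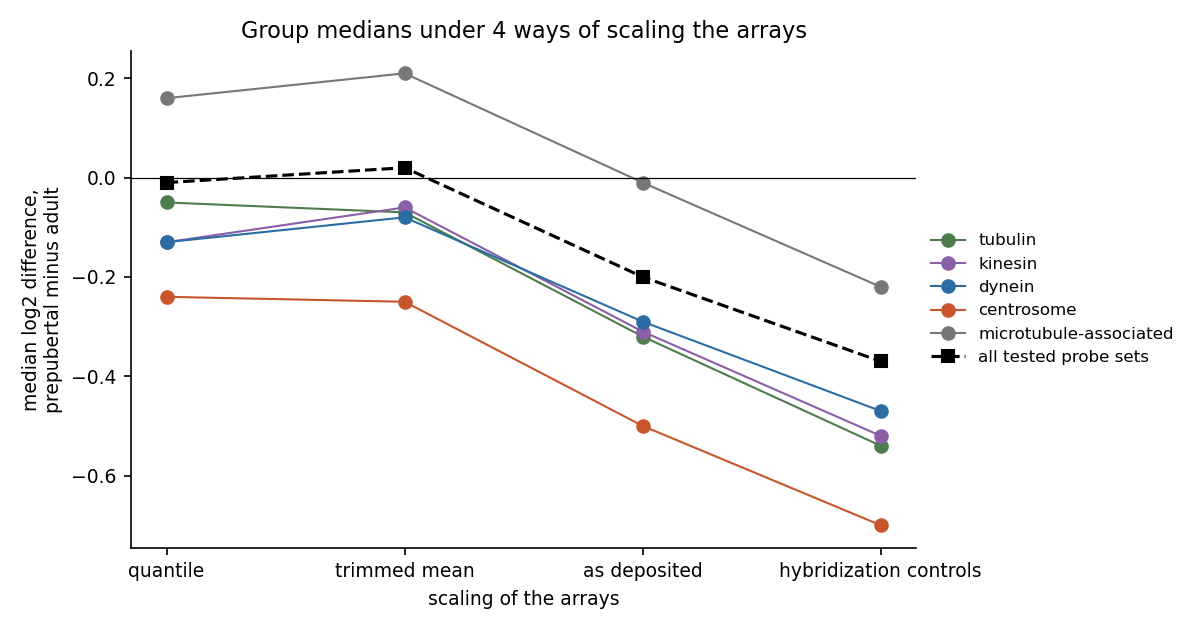
Median log2 difference of each group of members (coloured points joined for reading) and of all 12000 tested probe sets (black squares) under 4 ways of scaling the arrays. From quantile normalization to the deposited values and the hybridization controls all medians move down, from −0.01 to −0.20 and −0.37 for all probe sets, while the centrosome group is lowest and the microtubule-associated group highest under each of the 4.

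TACC1 and TACC3 belong to a family of coiled-coil proteins that stabilise microtubules at centrosomes and spindles. TACC1 had signals of 2811, 2628 and 2778 in adult and 1988, 2307 and 2237 in prepubertal oocytes, without overlap (−0.33 ± 0.10, SE; limma adjusted p = 0.241). TACC3, the family member known for its place on the spindle, had signals of 1264, 1366 and 1254 in adult and 1404, 1518 and 1941 in prepubertal oocytes, also without overlap but above the adult range (0.31 ± 0.13; limma adjusted p = 0.419). As deposited TACC1 differed by −0.60 and TACC3 by 0.02, and with the hybridization controls TACC3 was at −0.20, so its sign depended on scaling. The difference between the paralogs was not tested.

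STMN1 encodes stathmin, which binds free tubulin and promotes shrinkage of microtubules. Its signal was 1041, 1248 and 1544 in adult and 1332, 1641 and 1843 in prepubertal oocytes, with overlap (0.33 ± 0.16, SE; limma adjusted p = 0.479; 0.04 as deposited). MAPRE1, an end-binding protein that tracks growing plus ends, had signals of 6748, 6112 and 5423 in adult and 6066, 7204 and 6249 in prepubertal oocytes (0.10 ± 0.10). Its relative MAPRE3 was dim and differed by 0.14 ± 0.26.

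NUSAP1, a spindle protein that binds microtubules near chromosomes, had probe sets of opposite sign, 0.10 ± 0.10 and −0.20 ± 0.17 (SE), each within overlapping groups. The 3 probe sets of CKAP4, a membrane protein of the endoplasmic reticulum that anchors microtubules, differed by 0.19 to 0.24, with errors of 0.16 to 0.27 (SE). Of 7 member genes with several tested probe sets, 4 had one sign in all of them.

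The 17 member probe sets below the median level included all probe sets of 7 genes: the tubulin genes TUBA1A and TUBB4B, the cofactor gene TBCD, TUBGCP2, KIFC1, STMN2 and TACC2. Their signals lay between 0.66 and 33.2 on single arrays, where the level of the filter corresponds to a signal of 16. When all probe sets were tested in limma, 0 of the 17 passed and 0 had an unadjusted p at or under 0.05 (the lowest was 0.0943).

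**Figure D4:**
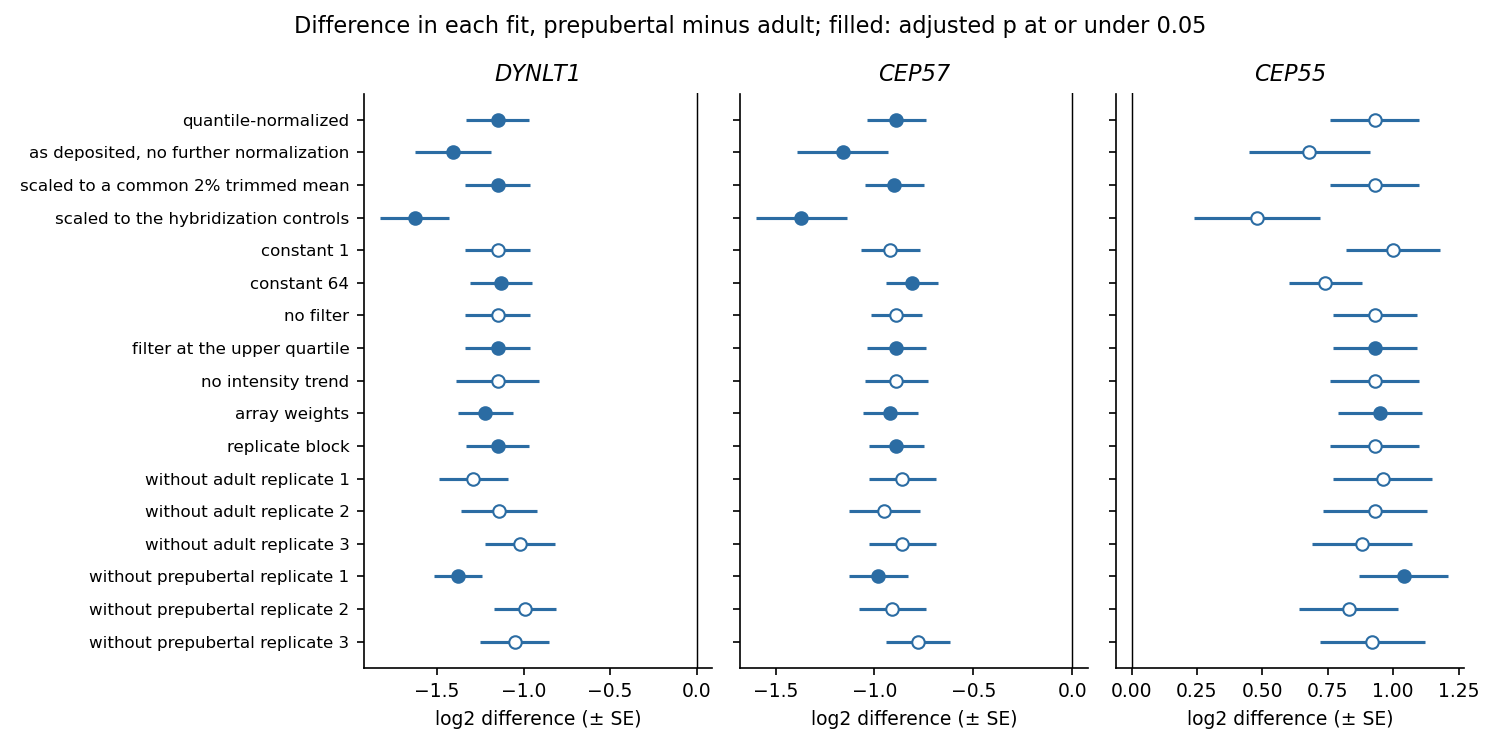
Log2 difference with its standard error for DYNLT1, CEP57 and CEP55 in the chosen fit (top) and in 16 alternative fits; filled points passed an adjusted p of 0.05. DYNLT1 and CEP57 stay below 0 and CEP55 above 0 in all 17 fits, while DYNLT1 and CEP57 passed in 9 of them and CEP55 in 3.

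Partners of these genes that act in the same pathways were taken from lists by textbook role, with CHTOP an exception described below. Of 8 tested genes of dynein regulators, adaptors and motor-cargo links (10 probe sets) 0 passed in limma. The list's median was 0.09 (−0.12 as deposited). An unadjusted limma p at or under 0.05 was found for 1 probe set (10%, against 10.8% of all tested probe sets). That probe set was of KIFAP3, the subunit that links KIF3A to cargo, with signals of 164, 178 and 186 in adult and 236, 246 and 238 in prepubertal oocytes (0.42 ± 0.15, SE; limma adjusted p = 0.335). As deposited the KIFAP3 difference was 0.16, with overlapping groups. KLC4, a kinesin light chain gene, followed at −0.37 ± 0.24, with a second tested KLC4 probe set at 0.16 ± 0.31. Of 6 tested genes of centrioles and pericentriolar material (8 probe sets) 0 passed in limma and 0 had an unadjusted p at or under 0.05. The lowest p there was for HAUS2, a subunit of augmin, which branches spindle microtubules, at 0.39 ± 0.18 (limma adjusted p = 0.474), and next came POC5, a centriole protein, at 0.12 ± 0.12. As deposited HAUS2 was at 0.21 and POC5 at −0.15, each with overlapping groups.

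Of 20 tested genes on the list for spindle assembly and microtubule dynamics (31 probe sets) 0 passed in limma. On this list 8 probe sets (25.8%, against 10.8% of all tested) had an unadjusted limma p at or under 0.05. Of these 8, 3 had lower and 5 had higher values in prepubertal oocytes, and the list's median was −0.04. The 5 were probe sets of MAP4 (0.63), CHTOP (0.54), MAP2 (0.53), SPAST (0.43) and RAN (0.43). As deposited they were at 0.52, 0.38, 0.35, 0.17 and 0.27. This MAP4 probe set was dim, at 13.8 to 19.8 in adult oocytes. A bright MAP4 probe set, at 1038 to 1321 in adult oocytes, differed by −0.10, and another dim one by −0.17. The other tested RAN probe sets were at 0.10, 0.18, 0.15 and −0.06. CHTOP encodes a chromatin-bound factor of mRNA export and is not a known spindle gene. It was counted because the list as chosen held it, so the share of 25.8% includes a gene from outside the theme. The lowest p was that of RANBP1, a partner of the GTPase Ran, which directs spindle formation around chromosomes. Its signal was 241, 162 and 174 in adult and 121, 81.3 and 83.5 in prepubertal oocytes, without overlap (−0.90 ± 0.20, SE; limma adjusted p = 0.11). A dimmer RANBP1 probe set differed by −0.06 ± 0.28. HDAC6, a tubulin deacetylase, followed at −0.73 ± 0.24 (limma adjusted p = 0.299), with a second tested HDAC6 probe set at 0.26 ± 0.29.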

How the data were processed

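The deposited values are MAS5 signal intensity values on a linear scale, 1 per probe set and array, with MAS5 named in the submitters' processing notes; version and scaling: not given in the sources used here. Poly(A) RNA was amplified in 2 cycles, per the labels' protocols. All columns matched a sample (0 unmatched). After leaving out 124 control probe sets, log2(signal + 16) was quantile-normalized and probe sets at or above the median mean were tested (12000 of 23999) with limma 3.58.1 in R 4.3.3 (lmFit, eBayes with an intensity trend). Symbols came from the platform's annotation, and all 67 member symbols matched RefSeq's table for Sscrofa11.1. Probe sets of different genes are not compared in level. The number of arrays limits the precision.

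Members and lists were chosen with earlier results of these data known. Named genes were those passing, per group the 3 lowest unadjusted p and 2 brightest genes, genes whose probe sets had opposite signs over 0.5 apart (0 genes), light chains beside DYNLT1, and the 2 lowest p of each further list; other members are named to account for them all. The deviations of same-numbered arrays were hardly correlated (r = 0.02 to 0.08), so the numbers were not used as pairs. The trimmed mean signal did have the same order in both groups. It was 160, 121 and 141 in adult and 131, 105 and 113 in prepubertal replicates 1, 2 and 3. The 3′ to 5′ ratios of actin and EF1A rose with the number in both groups, and that of GAPDH did not. Whether same-numbered arrays were handled together was not tested. The fit was tested on simulated data.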

Additional observations from a re-analysis of the deposited data

How the results depend on the processing

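All 17 fits gave DYNLT1 and CEP57 lower and CEP55 higher values. The count of 2 members past the threshold became 10 after scaling to the hybridization controls, and 0 in limma with a constant of 1, with no filter or with no intensity trend (8, 9 and 4 at an unadjusted p at or under 0.05). Leaving out each array gave 0 to 3. Over all probe sets the count of 14 became 57 as deposited (93.0% lower against 78.6%), 1538 with the hybridization controls (99.3% lower), 2 with a constant of 1, 26 with 64, 2 with no filter, 54 at the upper quartile, 0 with no trend (1177 at an unadjusted p at or under 0.05), 84 with array weights and 77 at an adjusted p of 0.10. It was 0 to 194 when each array was left out (0 without adult replicate 2, where limma gave 928 at an unadjusted p at or under 0.05, and 194 without prepubertal replicate 1). With the replicate number as a block it was 32, and the same 2 members passed.

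As deposited, the median was −0.28 for members, −0.32 for tubulin, −0.50 for centrosome and −0.01 for microtubule-associated probe sets. With the hybridization controls it was −0.47, −0.54, −0.70 and −0.22, and −0.52 for kinesins and −0.47 for dynein, which stood at 0.07 with the filter at the upper quartile. Without prepubertal replicate 2 the medians of all members and of kinesins were 0.03, in place of −0.06 and −0.13. Leaving out each array gave medians of −0.27 to −0.13 for centrosome, −0.20 to 0.03 for kinesin, −0.19 to −0.02 for dynein, −0.11 to −0.01 for tubulin and 0.11 to 0.26 for microtubule-associated probe sets, with dynein at −0.06 and −0.05 without adult replicates 1 and 2, −0.02 without prepubertal replicate 2, kinesin at −0.20 and −0.04 without adult replicates 2 and 3, and microtubule-associated at 0.26 without adult replicate 3. Of 473 comparisons for 30 named probe sets, 448 kept their side of the threshold, 16 lost it (all DYNLT1 or CEP57), 9 gained it and 0 called values changed sign. The cause of these changes was not tested. Probe sets near background limit what can be seen.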
